A study of Mus musculus with 5 samples.

Results

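The endothelial cells of the pancreatic islet were described here in single-cell RNA sequencing of hand-picked islets from 5 NOD.SCID mice. A droplet barcode was kept if it carried 1000 or more UMIs (unique molecular identifiers, 1 per captured transcript) from 500 or more genes, of which no more than 15% were mitochondrial. A kept barcode counted as an endothelial cell with at least 5 summed UMIs of Plvap, Flt1, Kdr and Emcn, at most 2 of the macrophage genes C1qa, C1qb and C1qc, at most 2 of the fibroblast genes Col1a1, Col3a1 and Dcn, and under 20% hormone UMIs. The rule took 820 of 22758 kept barcodes, out of 26474 in the matrices. These measured values chose the cells, so the levels of the rule's own genes are given as a description.

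The mice all carried the scid mutation of Prkdc on the NOD background (strain NOD.Cg-Prkdcscid/J), which leaves them without mature T and B cells. Chow mouse 1 was 8 weeks old, and chow mice 2 and 3 were 10 weeks old. HC mice 1 and 2, fed a diet labelled 20% HC, where HC stands for hydrolyzed casein, were 7 and 9 weeks old. The library of HC mouse 2 is titled as chow-fed while its diet label says HC, and it was kept as HC. The title's grouping was run as an alternative. For shares, counts of genes called and gene lists described singly, it is given where it turns a direction or moves a value by over 1.5 times. The libraries of both mice numbered 1 have names starting with FUN and the other 3 have names starting with SKY, a prefix whose meaning is not given.

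Islets are supplied by a dense bed of capillaries whose endothelium is pierced by fenestrae, small pores that let hormones pass quickly into the blood. Plvap builds the diaphragms of these pores. Beta cells secrete VEGF-A, which acts on endothelial Kdr (VEGFR2) and Flt1 (VEGFR1) and keeps the capillaries dense and fenestrated. In return the endothelium lays down the vascular basement membrane on which beta cells rest.

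The cells were shallow compared with the islet as a whole. Their median depth was 1674, 1215 and 1182.5 UMIs in chow mice 1 to 3 and 2048 and 1246 UMIs in HC mice 1 and 2, against 5147 to 6958.5 UMIs over all kept barcodes. The FUN libraries thus held the deeper endothelial cells, and 506 of the 820 cells had under 1500 UMIs. At the marker threshold, 40 cells carried 5 to 7 marker UMIs just inside it, and 10 barcodes that met the other limits carried 3 or 4. Hormone RNA removed 119 barcodes with enough marker UMIs, C1q UMIs 18 and collagen or Dcn UMIs 13. Of the 80 barcode sequences found in more than 1 library, 6 belonged to endothelial cells and none to endothelial cells of 2 mice. Among pairs of mice, the summed endothelial counts were closest for chow mouse 1 and HC mouse 1, with a chi-square per degree of freedom of 2.22, so no library looked like a copy of another.

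The endothelial share of kept barcodes was 3.91%, 3.42% and 1.73% in chow mice 1 to 3 and 2.92% and 6.32% in HC mice 1 and 2. HC mouse 2 had the highest share and chow mouse 3 the lowest, and HC mouse 1 lay inside the chow range. This order moved with the depth filter. At 2000 or more UMIs, 1000 or more genes and at most 10% mitochondrial UMIs the shares were 1.83%, 0.557% and 0.230% on chow and 2.05% and 0.860% on HC, and from 500 UMIs and 300 genes, a filter added after seeing the data, 4.35%, 6.90% and 5.99% on chow and 4.31% and 9.17% on HC. The differences were then 0.581 and 0.993 points. The mean was 4.62% ± 2.40 (SD, n = 2) on HC and 3.02% ± 1.14 (SD, n = 3) on chow, a difference of 1.60 percentage points with a two-sided exact permutation p of 0.5. This design of 10 splits allows no p under 0.1. Within the FUN libraries HC minus chow was -0.99 points and within the SKY libraries 3.75 points, and without HC mouse 2 it was -0.09 points. Grouped by title, with HC mouse 2 as chow, the difference was -0.92 points. The share is of barcodes that survived picking, trypsin and the UMI filter, and hormone-rich droplets make up most of its denominator. Among barcodes with under 20% hormone UMIs the share was 28.8%, 30.6% and 16.5% on chow and 29.9% and 32.3% on HC.

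**Figure D1:**
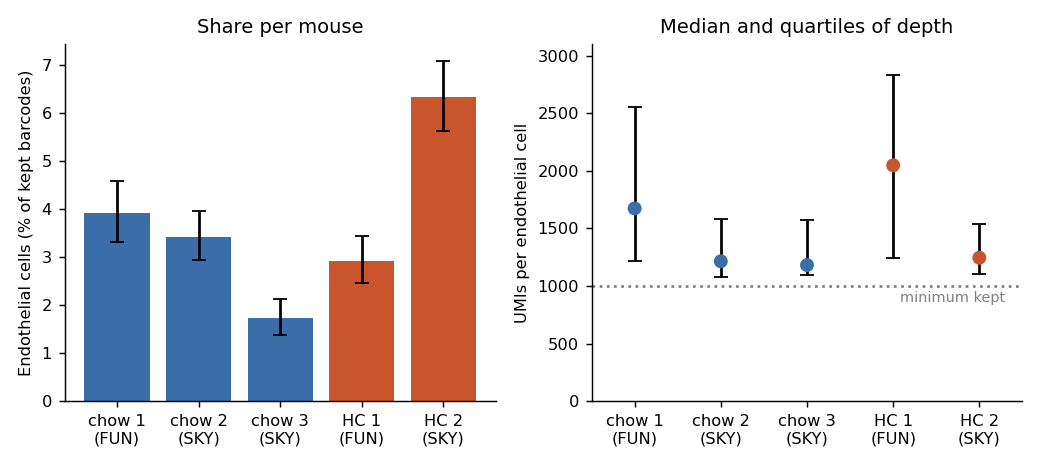
Left, bars give the endothelial share of kept barcodes in each mouse with its exact (Clopper-Pearson) 95% binomial interval, which covers counting error only; right, points give the median UMIs per endothelial cell and bars the quartiles, with the minimum of 1000 UMIs dotted. HC mouse 2 stands highest in share at 6.32%, and in the 3 SKY libraries the median lies close to the minimum, between 1182.5 and 1246 UMIs.

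The levels of the 4 rule genes were even across mice. Levels are given in CPM (counts scaled to a total of 1000000 for the summed endothelial UMIs of a mouse), in the order chow 1, 2 and 3, then HC 1 and 2. Plvap was at 5028, 4096, 3867, 4392 and 4194 CPM. Flt1 was at 2867, 2444, 2308, 2912 and 2373 CPM, and Kdr at 2588, 2312, 1536, 2423 and 2003 CPM. Emcn, which encodes the sialomucin endomucin of capillary and venous surfaces, was at 2615, 2114, 2180, 2395 and 2066 CPM. None of the 4 separated the diets, and Kdr was lowest in chow mouse 3.

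Esm1 and Rgcc were not used by the rule and marked the same cells. Esm1, which encodes endocan, a proteoglycan secreted by VEGF-stimulated endothelium, was at 2256, 2532, 1839, 2411 and 1867 CPM, and Rgcc, a regulator of the cell cycle enriched in capillaries, at 3328, 3310, 2952, 3155 and 2879 CPM. On average 76.9% ± 7.2 of the cells carried an Esm1 UMI (SD, n = 5), against 0.102% of insulin-rich barcodes, although insulin-rich barcodes had median depths of 6730.5 to 9661 UMIs. All 15 genes of the endothelial marker list were detected, and the list summed to 21691 to 26724 CPM per mouse, a sum that includes the 4 rule genes. The junction gene Cldn5 was the weakest, with a UMI in 2.80% to 7.09% of cells. Of the markers outside the rule, Esm1, Rgcc, Pecam1, Cdh5 and Egfl7 were present in every mouse.

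RNA of other cell types was also present in the summed cells and differed between libraries. Endocrine markers (12 genes, hormones included) summed to 14044 CPM in chow mouse 1 and 38114 CPM in chow mouse 3. Macrophage markers (12 genes, C1qc at 0) ranged from 31.4 CPM in chow mouse 1 to 2624 CPM in HC mouse 2, and acinar markers (12 genes, Amy2a1 at 0) from 136 CPM in chow mouse 3 to 2526 CPM in HC mouse 2. Ductal markers (9 genes) reached 2157 CPM in chow mouse 3 and were between 34.9 and 106 CPM in the other mice. Markers of stromal and mural cells (14 genes, Dcn and Pdgfra at 0) ranged from 60.5 CPM in chow mouse 3 to 1679 CPM in HC mouse 1. Chow and HC mice overlapped in each of these sums.

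To place the cells among the other low-hormone cells of the islet, their summed counts were set beside those of a macrophage class (52 to 93 barcodes per mouse, at least 5 C1q UMIs) and a stromal class (26 to 94 barcodes, at least 5 Col1a1, Col3a1 and Dcn UMIs). Both classes had the same limits on the other marker sums. HC mouse 1 was left out of the stromal comparison, since it had 14 stromal barcodes and 20 were required. The fit was edgeR's quasi-likelihood test with the mouse as a block, two-sided, with Benjamini-Hochberg adjusted p under 0.05. Genes used by the rules were left out of the counts. The rules had already separated these classes, so the counts describe them and support nothing beyond that. Endothelial sums were called higher than macrophage sums for 881 of 2721 genes (32.4%) and lower for 785 (28.8%). Against the stromal class, 700 of 3194 genes (21.9%) were called higher and 697 (21.8%) lower, and without HC mouse 2 the lower count was 422. Of 2456 genes tested in both, 511 (20.8%) were higher in both and 212 (8.63%) lower in both.

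The 15 genes with the largest differences read as a list of endothelial surface and signalling proteins, and 13 of them had no UMI at all in either of the other classes. Pecam1 (CD31), the adhesion molecule of endothelial contacts, was at 1044, 900, 931, 1128 and 1047 CPM, which is at least 223-fold higher than in macrophages and at least 155-fold higher than in stroma. These bounds set 3 UMIs over a whole class in place of its 0. Ptprb (VE-PTP), a phosphatase that restrains Tie2 and VE-cadherin, was at 866, 729, 727, 882 and 786 CPM, and Cdh5, VE-cadherin itself, at 691, 581, 575, 682 and 623 CPM. Both genes were thus present at nearly the same level in every mouse.

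Cd300lg, a mucin-like receptor of capillaries, averaged 639 ± 93.1 CPM, and Podxl, a sialomucin of the luminal surface, 583 ± 94.3 CPM (SD, n = 5 here and below). Gpihbp1, which carries lipoprotein lipase across capillary endothelium, averaged 552 ± 95.6 CPM, and Adgrl4, an adhesion receptor of growing vessels, 590 ± 81.6 CPM. Rbp7, a retinol-binding protein, averaged 2546 ± 450 CPM. It had 1 UMI in the macrophage class and none in the stromal class, as did Rgcc. Gimap4, Myct1, Ushbp1, Dysf and Exoc3l2 completed the 15, with means from 295 to 421 CPM.

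The genes named as lower in both comparisons were low rather than absent. Cd63, a tetraspanin of lysosomes and secretory granules, was at 41.9, 41.8, 98.4, 96.6 and 48.7 CPM, against 1280 CPM on average in macrophages and 1509 CPM in stroma (4 mice) (log2 fold changes of -4.88 ± 0.29 SE and -5.01 ± 0.19 SE). Ckb (brain-type creatine kinase), Itgb5 (an integrin chain) and Emp3 (a membrane protein) followed, at endothelial means of 53.6 to 118 CPM. Insulin-rich barcodes held Cd63 at 539 CPM and Ckb at 179 CPM.

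**Figure D2:**
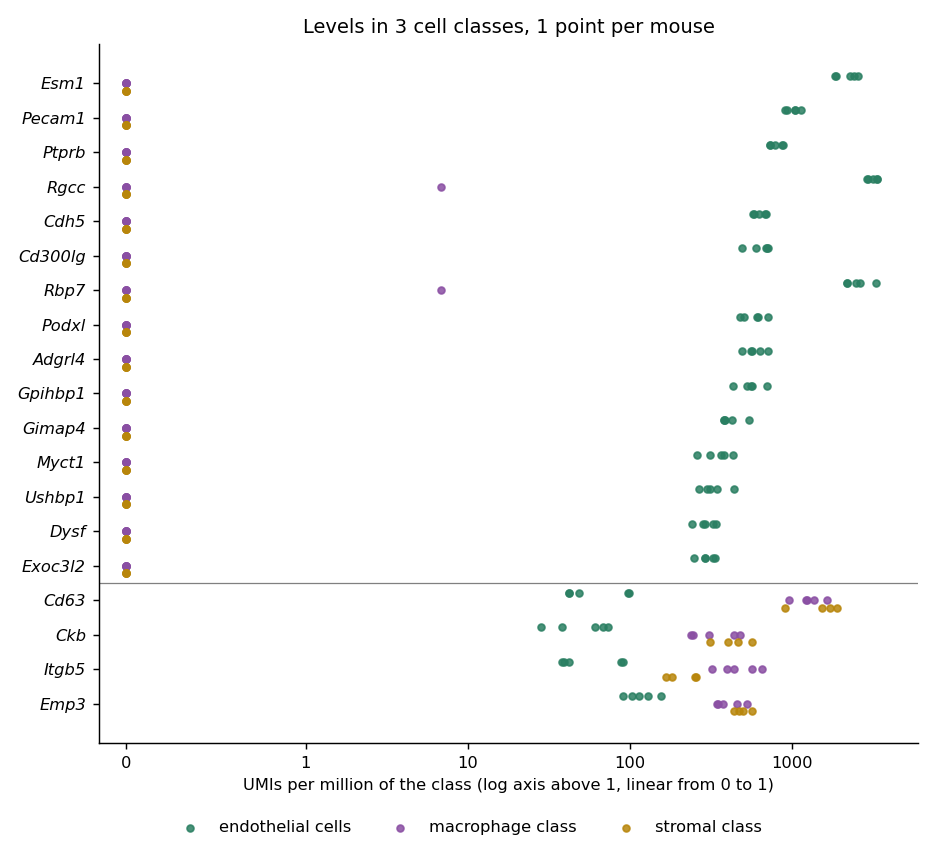
Levels in CPM of the 15 genes called highest and, below the line, 4 called lower in endothelial cells; each point is 1 mouse (4 mice for the stromal class) and the axis is logarithmic above 1. Apart from 1 macrophage point each for Rgcc and Rbp7, the 15 genes stand at 0 in both other classes.

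The receptors of vascular growth factors came first among the pathways. Nrp1, a co-receptor of VEGF, averaged 1168 ± 306 CPM, Plxnd1, a semaphorin receptor, 274 ± 50.8 CPM, and Nrp2 165 ± 23.3 CPM. Flt4, the receptor of VEGF-C, averaged 141 ± 14.4 CPM, with no UMI in the other classes. All 4 tested non-rule genes of the VEGF list were higher in both comparisons, against 20.8% of all genes. The ligands in the list were scarce: Vegfa was at 14, 7.59, 37.8, 9.35 and 17 CPM and had 21 UMIs in all, and Vegfc and Pgf had 22 and 15. Of the angiopoietin and Tie genes, the receptors Tie1 and Tek (Tie2) averaged 255 ± 32.7 and 152 ± 50.4 CPM. All 3 tested members were higher in both comparisons, against the same 20.8% of all genes. The ligand Angpt2 averaged 41.1 ± 11.4 CPM, and Angpt1, a ligand made by mural cells, had 1 UMI.

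Notch and BMP signalling genes were well represented. All 6 tested genes of the Notch list were higher in both comparisons, against 20.8% of all genes. The receptors Notch1 and Notch4 averaged 255 ± 29.4 and 167 ± 37.3 CPM, the ligand Dll4 210 ± 26.4 CPM and the target Hes1 212 ± 32.4 CPM. Of 9 tested genes of the BMP and TGF-beta list, 6 were higher in both, against the same 20.8% of all genes. Id3 and Id1, direct targets of BMP signalling, averaged 1660 ± 445 and 898 ± 235 CPM. The co-receptor Eng averaged 1066 ± 76.7 CPM and the receptor Acvrl1 (ALK1) 367 ± 76.5 CPM.

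Caveolae are flask-shaped pits of the endothelial membrane. Of 7 tested caveolar genes, 7 were higher than in macrophages, against 32.4% of all genes tested, and 5 higher than in stroma, against 21.9%. Cavin3 averaged 891 ± 59.2 CPM, Cavin2 474 ± 46.1 CPM and Cav1 403 ± 85.7 CPM, and Ehd4, an ATPase of membrane traffic, 1113 ± 235 CPM. All 12 tested junction and surface genes were higher in both comparisons, against 20.8% of all genes. Among them Egfl7, a secreted vascular matrix protein, averaged 2558 ± 455 CPM, the adhesion molecule Esam 927 ± 103 CPM and Cd34 774 ± 71.4 CPM.

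Of the endothelial transcription factors, 11 of 11 tested in both comparisons were higher in both, against 20.8% of all genes. Against stroma 11 of 13 tested were higher and 2 lower, against 21.9% and 21.8% of all genes. Klf2, which responds to blood flow, averaged 1089 ± 261 CPM, Sox18 977 ± 254 CPM, Epas1 (HIF-2 alpha) 675 ± 126 CPM and Mef2c 482 ± 75.5 CPM. Erg, Sox17 and Tal1 were among those outside the tests in at least 1 comparison; Erg had 158 UMIs in endothelial cells and none in the other 2 classes.

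The proximal promoters of the named endothelial genes were read for the core of the site of ETS factors, the family of Erg, Fli1 and Ets1. Windows of 250 bases before the RefSeq start (GRCm38.p6) were at hand for 9 of the 15 genes. The motif AGGAAG, on either strand, was in 7 of the 9, against 32.3% of all genes in the table. It was in 40% of the windows of genes higher in both comparisons (380 with a window) and in 32.3% of those tested in both (1948 with a window). The motif was chosen after several spellings had been looked at. CAGGAAG, which contains it, was in 2 of the 9, against 12.1% of all genes in the table. ACCGGAAG and ACAGGAAGT were in none, against 1.95% and 0.944%. Of genes higher in both comparisons, CAGGAAG was in 16.8%, ACCGGAAG in 1.32% and ACAGGAAGT in 1.84%. Of those tested in both, the shares were 12.5%, 4.57% and 1.03%. The fork head motif TGTTTAC was in none of the 9, against 3.54% of all genes. The GATA motif AGATAA was in 2, against 11.4%. A match describes letters, not binding. A pair of windows shows the spread of positions, with matches (AGGAAG or its reverse CTTCCT) in capitals, read 5′ to 3′ on the gene's strand. The Adgrl4 window lies at chr3:151437632-151437881 on the plus strand, and the Ushbp1 window at chr8:71395802-71396051 on the minus strand.
Adgrl4: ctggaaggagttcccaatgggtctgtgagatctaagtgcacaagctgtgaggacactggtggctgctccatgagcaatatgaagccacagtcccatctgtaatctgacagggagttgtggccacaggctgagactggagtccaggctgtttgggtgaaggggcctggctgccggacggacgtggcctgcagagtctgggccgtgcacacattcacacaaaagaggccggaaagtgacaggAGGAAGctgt
Ushbp1: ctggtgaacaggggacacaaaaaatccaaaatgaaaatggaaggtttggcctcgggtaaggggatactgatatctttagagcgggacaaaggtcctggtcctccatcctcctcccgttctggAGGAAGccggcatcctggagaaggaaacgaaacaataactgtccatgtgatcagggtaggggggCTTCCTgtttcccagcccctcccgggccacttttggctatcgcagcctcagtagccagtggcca
Adgrl4 has 1 match, which begins 10 bases before the start, and Ushbp1 has 2, beginning 128 and 64 bases before it.

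Basement membrane genes were counted next. All 13 tested matrix genes were higher than in macrophages, against 32.4% of all genes. In the stromal comparison, 6 of 16 were higher and 6 lower, against 21.9% and 21.8% of all genes. The collagen IV chains Col4a1 (3412, 3462, 2725, 3495 and 3166 CPM) and Col4a2 (1728, 1902, 1415, 1701 and 1818 CPM), the main fibres of the basement membrane, were higher in both. They had no UMI in macrophages. Sparc, a collagen-binding matrix protein, averaged 7684 ± 1054 CPM and differed from stroma by a log2 fold change of -0.26 (adjusted p = 0.52, edgeR). Sparcl1 was lower than in stroma (log2 fold change -0.75), and Fn1 (fibronectin) had 8 UMIs in all endothelial cells.

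Among signals to neighbouring cells, Thbs1, Pdgfb, Pdgfd, Kitl and Sema3f were higher in both comparisons, of 7 tested in both, against 20.8% of all genes. Against stroma 5 of 9 tested were higher and 2 lower, where 21.9% and 21.8% of all genes were, the latter near the share lower here. Thbs1 (thrombospondin 1, an inhibitor of angiogenesis) averaged 455 ± 166 CPM, Cxcl12 (a chemokine) 292 ± 61.2 CPM, Tgfb1 289 ± 93.4 CPM and Kitl (stem cell factor) 265 ± 34.7 CPM. No UMI of Hgf, Wnt2 or Rspo3 was found among the 1413865 endothelial UMIs, which allows a level of up to 2.12 CPM. Ctgf is not a symbol of the annotation used and was not matched.

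Adhesion genes of inflamed endothelium were near 0. Of that list, Cd47 and Ackr3, a scavenger of Cxcl12, were the highest, at 628 ± 105 and 148 ± 46.4 CPM. Icam1 had 24 UMIs in all, Vcam1 3 and Sele 1. Selp (P-selectin) had 11. Vwf (von Willebrand factor) had 12 UMIs, all in HC mouse 2. For these rare genes the files give presence in a few cells and no more.

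Lipid genes were unevenly represented. Gpihbp1 and Scarb1, the HDL receptor (297 ± 55.9 CPM), were present in all mice and higher in both comparisons, as were Fabp4 and Apold1. These are 4 of 7 tested in both, against 20.8% of all genes. Of 7 tested against macrophages 2 were lower, a share near the 28.8% of all genes. Of 8 tested against stroma 1 was lower, against 21.8% of all genes. Fabp4, a fatty acid carrier, varied widely, at 255, 660, 961, 396 and 1151 CPM. The fatty acid transporter Cd36, a usual marker of muscle and fat capillaries, had 22 UMIs, and Lpl, whose protein Gpihbp1 carries, averaged 43.6 CPM against 2319 CPM in stroma. Of genes of vessel tone and coagulation, 6 of 8 tested in both were higher in both, against 20.8% of all genes. Against stroma 7 of 10 tested were higher, against 21.9% of all genes, and 2 lower, a share near the 21.8% of all genes. The highest levels in the list were those of Adgrl4, Ace (angiotensin-converting enzyme, 374 ± 33.5 CPM), Ece1 (endothelin-converting enzyme, 360 ± 65.7 CPM) and Ednrb (an endothelin receptor, 320 ± 46.4 CPM).

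Class I antigen presentation and interferon genes were part of the profile on either diet. H2-D1 averaged 4372 ± 448 CPM, H2-K1 3517 ± 538 CPM and B2m 2750 ± 286 CPM. Of 13 tested genes of antigen presentation, 2 were higher and 6 lower than in macrophages, which carry class II, and 7 of 8 were higher than in stroma. For all genes tested, the shares higher and lower were 32.4% and 28.8% against macrophages and 21.9% and 21.8% against stroma. Of the interferon-stimulated genes, 15 of 21 tested were higher than in macrophages and 2 lower, and 11 of 19 were higher than in stroma and 2 lower. Ifitm3 (2147 ± 394 CPM), Ly6c1 (1827 ± 223 CPM), Ifitm2 (1749 ± 167 CPM) and Ly6a (1652 ± 436 CPM) had the highest levels. Mitochondrially encoded transcripts were lower than in macrophages for 11 of 11 tested, against 28.8% of all genes, and lower than in stroma for 3 of 11, a share near the 21.8% of all genes.

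The type of vessel was read from marker genes of arteries, veins, lymphatics, tip cells and the blood-brain barrier. Arterial Gja4, a connexin, was found in 13.4% to 30.8% of cells per mouse and Efnb2 in 14.6% to 28.0%, while Gja5, the connexin of larger arteries, was in 0% to 2.44%. Of the venous genes, Aplnr (the apelin receptor) was in 17.7% to 28.0% of cells and Ephb4 in 10.8% to 24.1%. Nr2f2, a factor of venous identity, was in 1.22% to 12.8%, and Ackr1, Selp and Vwf were each in at most 2.15% of cells. Of the lymphatic genes, Flt4 was in 16.6% to 27.7% of cells, but Lyve1, Ccl21a and Reln had no UMI and Prox1, the master factor of lymphatic fate, was in 0% to 3.66%, below its mean of 13.2% in insulin-rich barcodes, since endocrine cells also express it. Barrier genes were scarce: Slc2a1 was in 1.22% to 4.26% of cells, against 2.58% of insulin-rich barcodes, Mfsd2a and Slco1a4 had 1 UMI each, and Slco1c1, Slc7a5 and Ocln had none. Apart from Flt4, markers of large veins, lymphatics and the brain barrier were thus rare in each of the 5 mice. The rule chose cells by Plvap, Flt1, Kdr and Emcn, so vessel cells low in these genes were not admitted. The mix of vessel types in the islet therefore cannot be read from these shares.

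**Figure D3:**
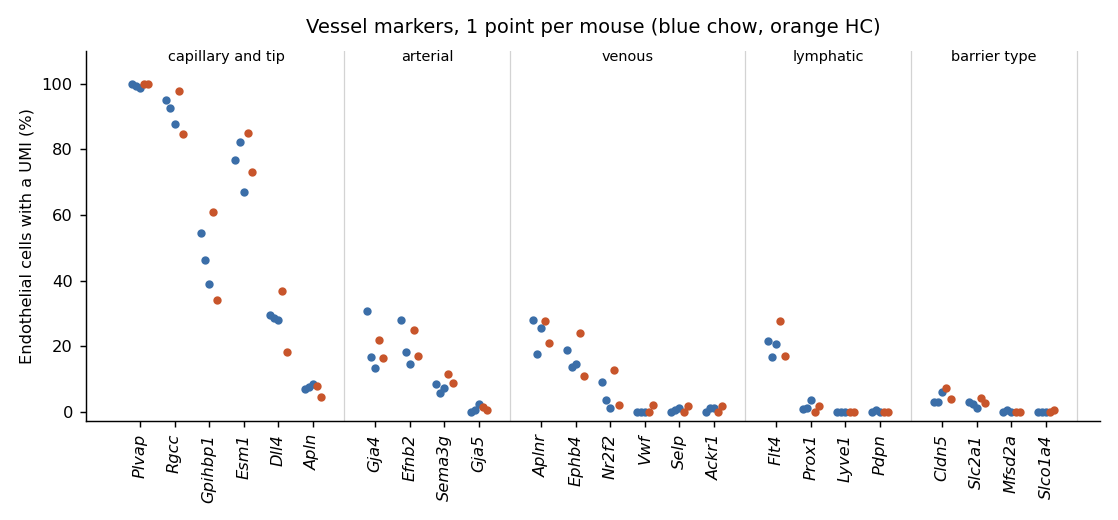
Share of endothelial cells with at least 1 UMI of each marker, in percent, with 1 point per mouse in the order chow 1 to 3 (blue) and HC 1 and 2 (orange); shares are not thinned, and the cells of chow mouse 1 and HC mouse 1 were the deepest. Plvap (a rule gene, which chose the cells), Rgcc and Esm1 are in most cells. Arterial and venous capillary markers are in a minority, and Lyve1, Pdpn, Mfsd2a and Slco1a4 are at or near 0.

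Because depth moves such shares, cells were thinned to 1500 UMIs, which left 77, 45, 25, 92 and 75 cells of chow mice 1 to 3 and HC mice 1 and 2. Cells with at least 2 UMIs over the tip cell list, led by Esm1, made up 83.1%, 80% and 56% on chow and 83.7% and 69.3% on HC. The arterial list gave 32.5%, 13.3% and 16.0% against 28.3% and 21.3%, and the venous list 9.09%, 2.22% and 28.0% against 14.1% and 20.0%. Lymphatic shares were at most 8.00%, and cell cycle shares 5.19%, 13.3% and 8.00% against 4.35% and 2.67%. HC and chow differed by 4.20 points for the arterial, 3.96 for the venous, -0.94 for the lymphatic, 3.48 for the tip cell and -5.34 for the cell cycle list. The smallest exact permutation p was 0.2, for the cell cycle, and each p adjusted over the 5 lists was 0.9. No list could have passed 0.05 at any difference, since 10 splits allow no p under 0.1. Thinned to 1000 UMIs, which kept all 820 cells, the cell cycle shares were 3.50%, 2.86% and 2.44% on chow and 0.709% and 1.08% on HC, with both HC mice below all chow mice, a difference of -2.04 points, an exact permutation p of 0.1, the smallest this design allows, and an adjusted p of 0.5; unthinned the difference was -0.10 points. Grouped by title, the differences were 7.48 points for the arterial, -0.70 for the venous, -3.36 for the lymphatic, 11.6 for the tip cell and -2.95 for the cell cycle list. The shares of chow mouse 3 rest on 25 cells. In insulin-rich barcodes the arterial, venous and tip cell shares were 0% in 300 barcodes of each of the 5 mice, at medians of 6763.5 to 9707.5 UMIs before thinning. In the macrophage class they were at most 4.35%, but its cell cycle share was 4.17% to 17.4%.

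The endothelial cells were also split by their Esm1 UMIs. Per mouse, 98, 119, 41, 100 and 154 cells carried at least 2 Esm1 UMIs and 33, 31, 27, 21 and 75 carried none. The split was chosen after the values had been seen, and it is a description with no test. Over 1477 genes with at least 150 UMIs in both sets together, 130 (8.8%) were higher in the cells with Esm1 in all 5 mice and 66 (4.47%) lower in all 5.

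Cells without Esm1 had more of the fatty acid carrier Fabp4, at 649, 2425, 2067, 1489 and 3011 CPM, against 168, 249, 207, 215 and 293 CPM in cells with Esm1. In every mouse the 2 sets were far apart, and the mean log2 ratio was -2.83 ± 0.61 (SD over 5 mice, 20 CPM added). A Fabp4 UMI was present in 27.3%, 41.9%, 51.9%, 42.9% and 50.7% of cells without Esm1 and in 13.3%, 21.0%, 12.2%, 21.0% and 16.2% of cells with it. Aplnr followed, at 365, 289, 282, 287 and 419 CPM against 168, 110, 155, 124 and 144 CPM, and Tek averaged 222 against 131 CPM. Fabp5 averaged 346 against 80.3 CPM.

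Cells with Esm1 had more Gja1 (connexin 43), at 187, 320, 328, 315 and 284 CPM against 60.9, 111, 113, 78.3 and 52.4 CPM. Degs1, a desaturase of sphingolipid synthesis, averaged 339 against 139 CPM, Thbs1 525 against 279 CPM, and Nrarp, a Notch target that limits Notch signalling, 203 CPM with Esm1 at a mean log2 ratio of 1.68 ± 1.31 (SD over 5 mice). The rule genes Kdr (2498 against 1552 CPM) and Flt1 (2879 against 2053 CPM), which chose the cells, were higher with Esm1 in all 5 mice. So were Gpihbp1 (684 against 358 CPM) and the rule gene Emcn, and Plvap was higher in 4 mice. The 15 endothelial markers, Esm1 and the rule genes included, summed to 24772 to 28741 CPM with Esm1. Without Esm1 they summed to 13997 to 23326 CPM.

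RNA of other cells moved with this split. Macrophage markers summed to 81.1 to 4453 CPM in cells without Esm1 and 22.7 to 328 CPM in cells with it, acinar markers reached 7961 CPM in cells of HC mouse 2 without Esm1, and ductal markers 5242 CPM in those of chow mouse 3. Cd74 and Apoe, 2 macrophage markers, were among the genes lower with Esm1 in all 5 mice. The macrophage class held Fabp5 at 942 CPM and Fabp4 at 41.4 CPM, and no UMI of Aplnr or Tek. Depth moved with the split in the FUN libraries, where the medians were 1309 and 1363 UMIs without Esm1 and 2045.5 and 2314 UMIs with it, while in the SKY libraries they were 1243, 1192 and 1307 UMIs without Esm1 and 1202, 1176 and 1237 UMIs with it. The part of these sums and depths in the other differences was not tested.

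**Figure D4:**
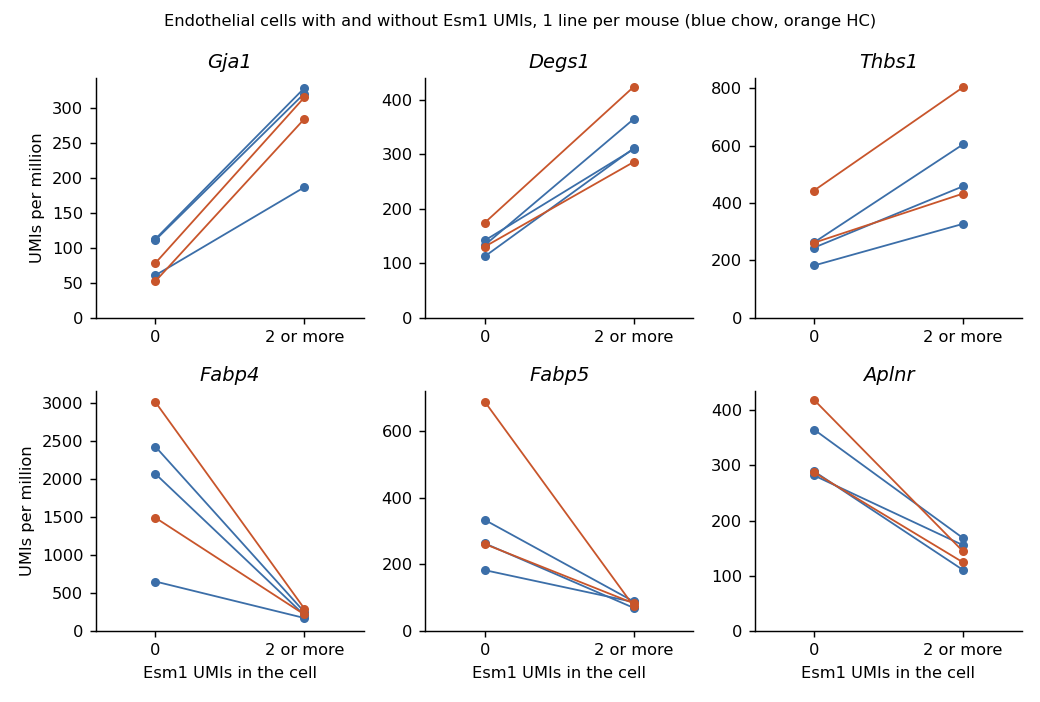
Levels in CPM in endothelial cells with 0 and with 2 or more Esm1 UMIs, 1 line per mouse, chow blue and HC orange. Gja1, Degs1 and Thbs1 lie higher and Fabp4, Fabp5 and Aplnr lower in cells with Esm1 in each of the 5 mice.

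Diet was compared on the summed counts of the 5 mice with edgeR's quasi-likelihood test. At an adjusted p under 0.05, 0 of 5125 genes (0%) differed between HC and chow. At an unadjusted p under 0.05 there were 158 (3.08%), of which 86 (1.68%) were higher and 72 (1.4%) lower on HC, and DESeq2 also called 0 by adjusted p, with 40 under an unadjusted 0.05. The genes below are those of smallest p or of lists, and none passed the threshold.

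The genes of smallest p on the higher side were interferon-stimulated. Interferons act through transcription factors that bind a response element and switch on antiviral genes; Irf7 sustains the production of type I interferon. Ifit3, an antiviral protein that binds foreign RNA complexes with its relatives, was at 27.9, 34.2 and 22.7 CPM on chow and 106 and 110 CPM on HC. Both HC mice lay well above all chow mice, with a log2 fold change of 1.87 ± 0.33 SE and an adjusted p of 0.0613 (edgeR). Irf7 was at 76.8, 68.3 and 75.7 CPM on chow and 190 and 153 CPM on HC (log2 fold change 1.21 ± 0.26 SE, adjusted p = 0.216, edgeR). Its 3 chow values were close together and both HC values apart. Ifit1, a relative of Ifit3 that binds viral RNA ends, was at 27.9, 41.7 and 68.1 CPM against 96.6 and 131 CPM (log2 fold change 1.45, adjusted p = 0.512, edgeR). Zbp1, a sensor of Z-form nucleic acid, was at 3.49, 3.80 and 15.1 CPM against 62.3 and 36.5 CPM, on 39 UMIs in all. Ptprk, a receptor phosphatase of cell contacts, was the only one of the 5 outside this pathway, at 34.9, 41.8 and 30.3 CPM against 96.6 and 75.5 CPM.

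The interferon list lay on the HC side in most of its genes. Of its 28 genes, all tested, 25 had a log2 fold change above 0, against 48.8% of all genes tested, and the median was 0.70 against -0.01. An unadjusted p under 0.05 was reached by 14 of the 28, against 3.08% of all genes. In 15 of the 28 both HC mice exceeded every chow mouse, against 7.9% of all genes, and in none did both lie below. The list and its genes were chosen with earlier results of these data known, and the counts are a description. Within the FUN libraries the median difference of log2(CPM + 5) was 0.89 and within the SKY libraries 0.48, with 25 and 24 of 28 genes above 0, against medians of -0.02 and 0.02 for all genes. Grouped by title the median log2 fold change was 0.51, 0.49 with HC mouse 1 left out and 0.66 with HC mouse 2 left out.

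The genes of the list did not share 1 pattern over mice. Isg15, a ubiquitin-like protein, was at 192, 201 and 235 CPM against 299 and 377 CPM, and Bst2 (tetherin, which holds budding viruses) at 650, 770 and 901 CPM against 1255 and 1173 CPM. For these, as for Ifit3 and Irf7, both HC mice were high. The GTPases that attack pathogen vacuoles were highest in HC mouse 1 (genes singled out after their values were seen). Igtp was at 83.8, 49.3 and 68.1 CPM against 411 and 102 CPM, and Iigp1 at 293, 133 and 401 CPM against 1445 and 426 CPM. Gbp2, a guanylate-binding protein, was at 101, 118 and 90.8 CPM against 318 and 112 CPM, where HC mouse 2 lay within the chow range. Irf1, a factor induced by interferon gamma, was flat at 206, 182 and 204 CPM against 215 and 180 CPM, and Ifi27 and Ifitm2 also lay at or below 0 in log2 fold change.

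Other cells of the same libraries gave a reference. In insulin-rich barcodes Ifit3 was at 0.397, 1.02 and 0.270 CPM on chow and 0.349 and 0.455 CPM on HC, far below its endothelial levels and with the diets overlapping. In the macrophage class Ifit3 was at 0, 31.9 and 15.4 CPM on chow and 88.9 and 83.7 CPM on HC, on 33 UMIs, while Irf7 overlapped between diets at 78.8, 128 and 170 against 109 and 151 CPM. Macrophage marker RNA in the endothelial cells was 31.4, 543 and 1968 CPM on chow and 299 and 2624 CPM on HC, and the macrophage class itself averaged 44.0 CPM of Ifit3. In the endothelial cells with an Esm1 UMI alone, the interferon list had a median of 0.73, with 27 of 28 genes above 0.

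The promoters of the interferon list were read for the letters of the response element. Its core, GAAA followed by any 2 bases and GAAA again, on either strand (TTTC repeats on the reverse), was searched in the 250 bases before the RefSeq start (GRCm38.p6). Windows were at hand for 21 of the 28 genes, and 11 of these held the motif, against 3.46% of all genes in the table. Windows of 3 members that hold a match, picked for showing it, follow, with matches in capitals, read 5′ to 3′ on the gene's strand. They lie at chr19:34583279-34583528 (Ifit3, plus strand), chr19:34640639-34640888 (Ifit1, plus strand) and chr4:156200819-156201068 (Isg15, minus strand).
Ifit3: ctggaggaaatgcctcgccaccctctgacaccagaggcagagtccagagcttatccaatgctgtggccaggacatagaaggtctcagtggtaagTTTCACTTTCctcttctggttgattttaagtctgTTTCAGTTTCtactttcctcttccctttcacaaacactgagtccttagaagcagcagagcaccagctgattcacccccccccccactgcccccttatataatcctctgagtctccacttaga
Ifit1: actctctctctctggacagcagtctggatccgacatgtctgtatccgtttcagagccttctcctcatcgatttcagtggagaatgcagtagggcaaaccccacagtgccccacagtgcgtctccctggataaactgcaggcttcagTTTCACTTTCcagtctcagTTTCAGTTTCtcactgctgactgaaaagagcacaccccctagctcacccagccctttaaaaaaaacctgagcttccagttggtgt
Isg15: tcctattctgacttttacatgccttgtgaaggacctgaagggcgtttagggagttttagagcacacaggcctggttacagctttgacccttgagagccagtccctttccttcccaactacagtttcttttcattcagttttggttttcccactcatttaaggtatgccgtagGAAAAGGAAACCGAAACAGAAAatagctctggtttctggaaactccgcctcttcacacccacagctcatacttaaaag
Ifit3 and Ifit1 each have 2 separate matches, which begin 156 and 122 bases before the start in Ifit3 and 104 and 85 in Ifit1. Isg15 has 3 overlapping matches that begin 78, 72 and 66 bases before the start. Irf7, Irf1, Ifi35, Ifi44, Ifit2, Ifitm3, Irf9, Ly6c1, Oasl2 and Xaf1 have no match to these letters in their windows, which says nothing of the factor. Members with and without a match were both among those with HC mice above all chow mice, for example Isg15 and Irf7.

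On the lower side Car4 had the smallest p. Car4 encodes carbonic anhydrase 4, an enzyme anchored to the luminal face of capillaries that interconverts carbon dioxide and bicarbonate. The gene lies at chr11:84957786-84966044 (GRCm38). It was at 594, 345 and 295 CPM on chow and 184 and 146 CPM on HC. Each HC mouse lay below each chow mouse, and chow mouse 1 was far above the others. The log2 fold change was -1.35 ± 0.26 SE with an adjusted p of 0.133 (edgeR). Within the FUN libraries the difference of log2(CPM + 5) was -1.66 and within the SKY libraries -1.10. The share of cells with a Car4 UMI, after thinning to 1000 UMIs, was 36.4%, 26.3% and 28.0% on chow and 16.3% and 12.2% on HC; unthinned it was 53.1%, 34.3% and 30.5% against 27.7% and 15.4%. In the deeper insulin-rich barcodes it was at most 0.0518%. Car4 had no UMI in the macrophage and stromal classes. Car8, the other carbonic anhydrase tested, was at 112, 72.1 and 159 CPM against 99.7 and 87.6 CPM, with the diets overlapping.

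Car4 and Ifit3 changed calls with the fit, as did the count of genes called: it was 6 with the prefix as a term, 7 with age as a term, 23 when HC mouse 1 was left out and 17 when HC mouse 2 was. With the library-name prefix as a term Car4 had an adjusted p of 0.000882 and Ifit3 of 0.00648, and with age as a term 0.000231 and 0.0119 (edgeR). Leaving out HC mouse 1 gave 0.00268 and 0.00207, and leaving out HC mouse 2 gave 0.0454 and 0.0205. These 2 fits hold 1 HC mouse, which is assumed to vary like the chow mice. The genes called without HC mouse 1 included acinar and macrophage genes (Pnliprp1, Cpb1, Try5, Lyz2 and Tyrobp), whose marker sums were highest in HC mouse 2. Neither Car4 nor Ifit3 passed with any 1 chow mouse left out, with the title's grouping or in the cells with an Esm1 UMI alone. Other genes changed calls too. The fit with the prefix also called Igtp, Depp1, Irf7 and Ifit1 higher on HC. The fit with age also called Fabp4, Depp1, Fabp5, Ddit4 and Ifit1 higher on HC.

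The other 4 genes of smallest p on the lower side were Hist1h2ap (a replication-dependent histone, 38.4, 60.7 and 22.7 CPM against 9.35 and 0 CPM), Plin3 (a lipid droplet coat protein), Ier3 (an immediate-early gene) and Hspd1 (the mitochondrial chaperone HSP60). Their log2 fold changes were -3.25, -1.45, -0.77 and -0.68, each with an adjusted p of 1 (edgeR). In each of the 4, both HC mice lay below all chow mice, against 7.75% of all genes. The 4 were picked by their p, so this separation adds no support.

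**Figure D5:**
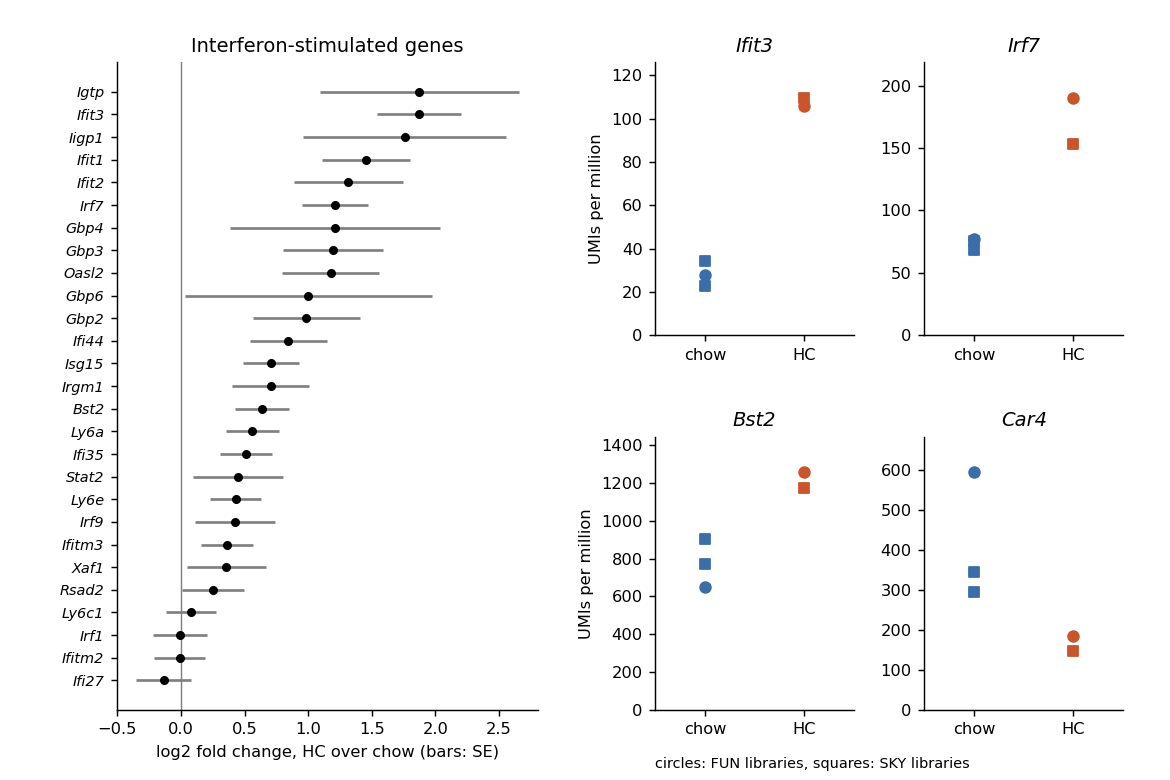
Left, log2 fold change of HC over chow with its standard error for interferon-stimulated genes; right, levels in CPM per mouse of Ifit3, Irf7, Bst2 and Car4, with circles for FUN and squares for SKY libraries. Both HC mice lie above all chow mice in the first 3 genes and below them in Car4, and no gene passed the adjusted threshold.

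The medians of other lists lay between -1.03 and 0.91, and no gene of theirs was called. The 0.91 is the value of Cldn5, the only gene tested of the barrier list. The next highest median was 0.46, for antigen presentation. Tek and Sox18 are given as examples chosen after their values were seen. Tek was at 154, 91.1 and 114 CPM on chow and 196 and 207 CPM on HC (log2 fold change 0.74, unadjusted p = 0.00537, adjusted p = 1, edgeR). Sox18 was at 1376, 975 and 954 CPM on chow and 910 and 669 CPM on HC (log2 fold change -0.50). Over the whole junction and surface list, which holds the rule gene Emcn, 12 of 14 genes were above 0 with a median of 0.14. Without Emcn it was 12 of 13 with a median of 0.17, against 48.8% of all genes above 0. In the cells with an Esm1 UMI 8 of 14 were above 0, with a median of 0.02. Grouped by title 10 of 14 were, with a median of 0.085. Of 16 matrix genes, 15 were above 0 with a median of 0.16, but without chow mouse 3 the median was 0.06 with 11 above 0, with age as a term 0.09 with 10 above 0, and with equal cells per mouse 0.01 with 8 of 14 above 0. In 1 of the 16 both HC mice exceeded every chow mouse, a share near the 7.9% of all genes. Of the cell cycle list 4 genes were tested, and 3 were below 0 with a median of -1.03. Ube2c, an enzyme of mitotic exit, was at 73.3, 87.3 and 7.57 CPM on chow and 28.0 and 21.9 CPM on HC (log2 fold change -1.36, unadjusted p = 0.022, adjusted p = 1, edgeR), with chow mouse 3 the lowest. Without chow mouse 1 or 2 the list's median was -0.34 or -0.13, on 2 genes each. Grouped by title the median was -0.58, on 6 genes.

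Immediate-early and heat shock genes, which respond to tissue handling, leaned the other way: 23 of 25 were below 0, with a median of -0.27, and in 5 both HC mice lay below all chow mice (Dnajb1, Ier2, Nr4a1, Hspa1b and Ier3), against 7.75% of all genes. Within the FUN libraries the median was -0.52 and 1 of 25 genes was above 0, and within the SKY libraries it was -0.06 and 10 were. Grouped by title the median was -0.44, and without HC mouse 1 or chow mouse 1 it was -0.14 or -0.16. In the amino acid response list, which diets of altered protein can touch, 7 of 8 tested genes were above 0, against 48.8% of all genes, with a median of 0.23, and none had an unadjusted p under 0.05. The median was 0.07 with 5 of 8 above 0 grouped by title, 0.08 with the filter from 500 UMIs and 0.14 without HC mouse 2. Atf4, its central factor, had a log2 fold change of 0.26.

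Of 12 tested genes of antigen presentation, 10 were above 0, against 48.8% of all genes, with a median of 0.46. In 2 of the 12, Psmb8 and H2-Ab1, both HC mice exceeded every chow mouse, against 7.9% of all genes. For H2-Ab1, a class II gene, the diets overlapped in cells with 2 or more Esm1 UMIs. It was at 27.3, 33.1 and 173 CPM on chow and 211 and 9.31 CPM on HC there. In cells without Esm1 it was at 40.6, 66.7 and 207 CPM on chow and 340 and 969 CPM on HC. The source of this RNA was not tested. The median was 0.18 with 7 of 12 above 0 grouped by title, 0.13 with 8 above 0 without HC mouse 1, 0.26 when chow mouse 2 was left out and 0.25 with an age term. Psmb8, a subunit of the immunoproteasome, was at 660, 581 and 749 CPM on chow and 981 and 852 CPM on HC (log2 fold change 0.45, unadjusted p = 0.0409, adjusted p = 1, edgeR). Tapbp (tapasin, which loads class I) was at 220, 243 and 197 CPM against 399 and 224 CPM, and HC mouse 2 lay inside the chow range. The class I chain H2-K1 overlapped between diets, at 3743, 2767 and 4147 CPM on chow and 3729 and 3198 CPM on HC. Of the class II genes, Cd74 varied within each diet, at 10.5, 19.0 and 522 CPM on chow and 246 and 1163 CPM on HC. Cd74 is itself part of the macrophage marker sums given above. The source of its RNA was not tested.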

How the data were processed

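The authors deposited filtered gene-by-barcode matrices of whole-number UMI counts, 1 library per mouse, with 28722244 to 39624978 UMIs in each. Cell Ranger 4.0.0 and the mm10 build are named per the submitters' processing notes; the annotation release is not given in the sources used here. Per the labels' protocols, islets were perfused with collagenase, hand-picked and dispersed with trypsin. Barcodes were filtered and classed by the limits in the report, and no doublet caller was run. Raw counts were summed per mouse and class and tested with edgeR 4.0.16 in R 4.3.3 (TMM scaling, filterByExpr, robust quasi-likelihood fit, two-sided, Benjamini-Hochberg). The mouse was a block between classes, which come from the same animals. DESeq2 1.42.0 was an alternative. Shares were compared by exact permutation over mice, and intervals are exact binomial, for counting error only. The tests were tested on simulated data.

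Members and gene lists were chosen with earlier results of these data known. Named diet genes are the 5 of smallest p in each direction, because fewer than 5 passed. Named class genes are the 15 called higher in both comparisons with the largest smaller log2 fold change, at 200 CPM or more, and the 5 called lower in both with the largest fall, at 50 CPM or more. From lists, 2 to 4 members of highest level or smallest p are named; other genes named were chosen after their values were seen. A few genes that these rules name are not reported here. With 5 mice, the library-name prefix and age were fitted 1 at a time. Each mouse was sequenced separately, and p-values measure the spread between mice. Alternatives covered scaling, filters, thresholds, thinning, the title's grouping and leaving out each mouse.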

Additional observations from a re-analysis of the deposited data

Results flagged for a closer look

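The endothelial share moved in opposite directions with diet by library-name prefix. HC minus chow was -0.987 percentage points within the FUN libraries, with 1 mouse per diet, and 3.75 points within the SKY libraries, with 2 chow mice and 1 HC mouse. The share of cells with arterial genes likewise differed by -4.21 points within FUN and by 6.67 points within SKY. Neither difference between prefixes was tested.

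Outside the UMI and gene filter, 724 barcodes met the marker rule, beside the 820 cells described. They were unevenly spread, with 25, 220 and 237 in chow mice 1 to 3 and 76 and 166 in HC mice 1 and 2.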

How the results depend on the processing

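The difference in endothelial share (1.60 points) was -0.920 grouped by title and -0.987 within FUN, and ranged from -0.0939 to 3.30 with 1 mouse left out. Each of the 5 vessel-type and cell cycle differences reversed under at least 1 alternative. Thinned to 1000 UMIs, an alternative chosen after seeing the data, the arterial difference was -0.953, the venous -1.55, the lymphatic 0.0792, the tip cell -1.70 and the cell cycle -2.04 points. Unthinned, the lymphatic difference was 0.0717. Grouped by title the venous difference was -0.698, and with at least 1 UMI the lymphatic was 1.96 and the cell cycle 0.0840. With 1 mouse left out, the arterial difference ranged from 0.563 to 10.1, the venous from -1.48 to 11.4, the lymphatic from -3.06 to 1.19, the tip cell from -5.04 to 10.7 and the cell cycle from -7.16 to -3.09. Without chow mouse 3 the lymphatic value was 0.988, and without HC mouse 1 the tip cell value was -3.71.

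The 0 genes called between diets became 7 with age as a term, 6 with the prefix, 2 with at least 10 marker UMIs, 1 with the filter lowered to 500 UMIs and 300 genes, 16 by title, 17 with no low-count filter, and 0 to 23 with 1 mouse left out. The cause was not tested. With no low-count filter, 2099 genes were called higher and 1358 lower than in macrophages, and 1213 higher than in stroma. With 1 mouse left out these counts ranged from 758 to 1124, 666 to 850 and 481 to 838, and the count lower than in stroma from 422 to 705. With no replicate block by mouse, 877 and 776 genes were called against macrophages and 712 and 703 against stroma, and no named class gene changed its call. No paired analysis of diet was possible because the replicate numbers do not tie chow mice to HC mice. The named diet genes reversed under none of the alternatives run. Depth limits the vessel-type shares, since 506 of the 820 cells had under 1500 UMIs.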

Other observations

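Red blood cell markers (5 globin and heme genes) summed to 0 CPM in the endothelial cells of chow mouse 1, 1962 and 1847 CPM in chow mice 2 and 3, and 1947 and 616 CPM in HC mice 1 and 2. Other leukocyte markers (10 genes) were at 0 in 4 mice and at 90.1 CPM in HC mouse 2, the mouse that also held all 12 Vwf UMIs. After thinning to 1000 UMIs, a Fabp4 UMI was in 13.3%, 21.7% and 23.2% of cells on chow and 19.1% and 25.8% on HC, and an Esm1 UMI in 69.9%, 73.7% and 61.0% on chow and 73.0% and 68.1% on HC.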
